A study of Homo sapiens with 8 samples.

Results

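The regions described here are sites of the progesterone receptor (PR) that were listed in hormone-free T47D-MTVL cells and at none of 4 times after the progestin R5020 was added. They were chosen by where PR was listed at the 5 times, by merging the 5 deposited lists of PR sites wherever sites overlapped by 1 bp or more and by keeping the merged sites that held a site of the 0 min list and none of the 5, 30, 60 or 360 min lists. The rule kept 735 of 43784 merged sites, and each of the 735 was a lone site of the 844 in the 0 min list (87.1%, exact 95% interval 84.6 to 89.3%). T47D-MTVL cells derive from the human breast cancer line T47D, which expresses PR at a high level, and hold an integrated reporter gene under the mouse mammary tumour virus promoter. PR was precipitated with the antibody H190 after 0, 5, 30, 60 or 360 min of 10 nM R5020, and in unstimulated cells histone H3 monomethylated or trimethylated at lysine 4 (H3K4me1, H3K4me3) and RNA polymerase II were precipitated as well. Before that, all cells were kept for 48 h with serum stripped of steroids by charcoal and for 1 day in serum-free medium. Each of these 8 groups was 1 sample of this line, so no difference between groups has a replicate check, no p-value is given, and intervals on shares are exact (Clopper-Pearson) 95% intervals that cover counting error over the sites of 1 library only.

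PR is a ligand-activated transcription factor of the steroid receptor family. Without hormone it is largely held in complexes with chaperones, and a progestin releases it, lets it dimerise and brings it to hormone response elements in DNA, where it recruits coactivators and chromatin remodellers. H3K4me1 marks enhancers and the flanks of promoters, H3K4me3 marks the starts of active genes, and RNA polymerase II lies where genes are being transcribed or are paused. The lists give chromosome, start and end only, with no height, score or read number, so the depth behind a site is unknown and a site's absence from a list does not show that PR was absent there. Coordinates are hg19, as the lists give them.

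Most sites of the 0 min list overlapped no hormone-time site, and most of the others were listed at every time. Since the lists themselves chose the sites, these counts are a description. The remaining 109 sites of the 0 min list fell into 105 merged sites, of which 75 held sites of all 5 times, 8 held 0 and 5 min only, and 6 held 0 and 60 min only. The lists with hormone held 22973 sites at 5 min, 25872 at 30 min, 24436 at 60 min and 23841 at 360 min. Merged sites listed at 1 of these times alone numbered 7371, 3729, 2663 and 4421, in the same order. Because the rule is an overlap of 1 bp, some sites lay just on either side of it. Just inside the set, the site on chromosome 3 from 189040104 to 189040361 lay 1 bp before a 30 min site, and the site on chromosome 8 from 135879012 to 135879212 lay 1 bp before a 360 min site. The next nearest were 11 bp (chromosome 3 from 186586782), 21 bp (chromosome 3 from 192392880) and 44 bp (chromosome 12 from 127650394) from a hormone-time site. Just outside it, merged sites were ranked by the largest overlap between their 0 min and later sites. The smallest of these was 7 bp, in the merged site on chromosome 10 from 50324908 to 50325439, which held sites of 0 and 60 min. The next smallest were 43 bp on chromosome 7 from 2349495, 44 bp on chromosome 3 from 187498766, 55 bp on chromosome 12 from 116755811 and 56 bp on chromosome 17 from 60664826.

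The sites listed before hormone alone were narrow, and a few wide ones stood apart. Their median width was 229 bp (quartiles 202.5 and 263.5 bp), against 234 bp for the 7371 sites listed at 5 min alone and 226 bp for the 4421 sites listed at 360 min alone. The merged sites listed at 0 min and later had a median of 508 bp, and merging itself widens these. Only 4 of the 735 were wider than 530 bp. The widest, of 953 bp, lay on chromosome 20 from 26188505 to 26189458, and a neighbour of 794 bp lay on the same chromosome from 26189696 to 26190490. Both overlapped H3K4me1, H3K4me3 and RNA polymerase II regions. The second widest, of 811 bp, lay on chromosome 8 from 128752472 to 128753283 in an H3K4me1 region, with its nearest hormone-time site 19.6 kb away at 30 min. A site of 770 bp on chromosome 7 from 64954307 to 64955077 overlapped H3K4me1 and H3K4me3 regions. The other 6 of the 10 widest measured 481 to 530 bp. On chromosome 1 they spanned 91852691 to 91853213 (522 bp), 202593833 to 202594314 (481 bp) and 234913686 to 234914193 (507 bp). On chromosome 3 they spanned 176232797 to 176233327 (530 bp) and 194715149 to 194715665 (516 bp), and on chromosome 8 the span was 58118182 to 58118702 (520 bp). Each of the 10 overlapped an H3K4me1 region, against 56.0% of the widest of 4 groups of the set by width and 42.1% of all merged PR sites. These 10 were picked for width, and a wider site meets a region more easily at an overlap of 1 bp.

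Chromosome 3 held more of the sites listed before hormone alone than any other chromosome, and most of these lay towards the end of its long arm. Chromosome 3 held 206 of the 735 (28.0%, 24.8 to 31.4%), against 9.63% of all merged PR sites, 12.4% (11.7 to 13.2%) of sites listed at 5 min alone and 7.76% (6.99 to 8.59%) of sites listed at 360 min alone. From 160 Mb, a position chosen after the sites had been seen, to its end, chromosome 3 held 160 of the 735 (21.8%, 18.8 to 24.9%) and 2.89% of the 60 min list. That is 22.7 sites for every 100 sites of the 60 min list, against 3.37 on the rest of chromosome 3 and 2.37 on the other chromosomes. The merged sites listed at 0 min and later also leaned to this stretch, with 13 of 105 (12.4%, 6.76 to 20.2%) there and 16.2% (9.72 to 24.7%) on chromosome 3 as a whole. Of the sites listed at 5 min alone 6.65% (6.09 to 7.24%) lay in this stretch, and of those listed at 30, 60 and 360 min alone 3.75%, 2.63% and 2.49%. Chromosomes 12 and 10 followed, with 4.53 and 4.08 sites for every 100 of the 60 min list. Chromosome 22, with 371 sites in the 60 min list, had none.

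**Figure D1:**
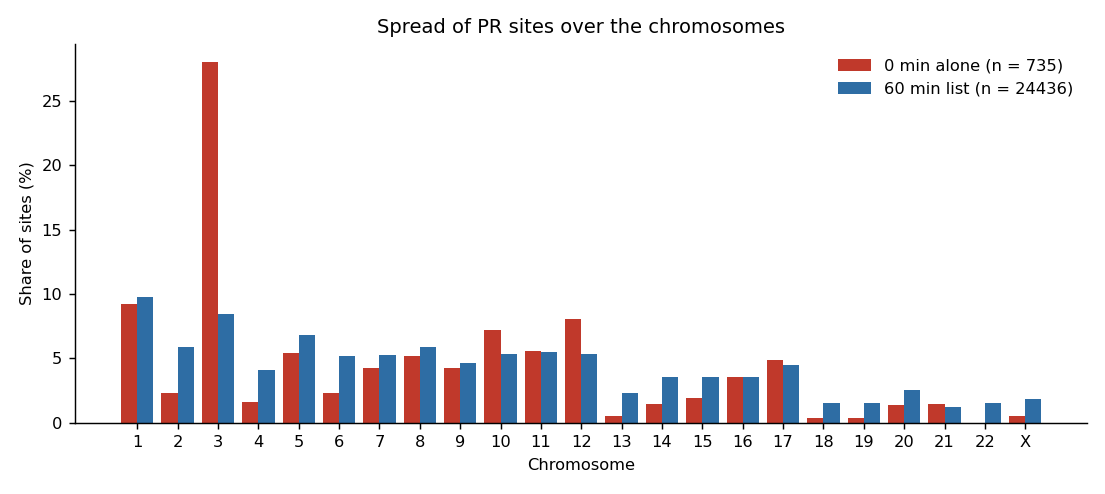
Share of the 735 PR sites listed before hormone alone (left bar of each pair) and of the 24436 sites of the 60 min list (right bar) on each chromosome, in percent of the sites of each set. Chromosome 3 holds 28.0% of the sites listed before hormone alone and 8.47% of the 60 min list.

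At a finer scale the sites were either scattered or crowded. They occupied 471 bins of 1 Mb, of which 348 held 1 site each. The 17 bins with 5 or more sites held 138 of them (18.8%), and 14 of these bins were on chromosome 3. The fullest was chromosome 3 from 194 to 195 Mb, with 18 sites, the widest of them the 516 bp site named above, and all 18 lay in H3K4me1 regions. Hormone-time lists held 35, 35, 24 and 28 sites in the same bin at 5, 30, 60 and 360 min, so PR was also listed there at other places after hormone. The next bins were chromosome 3 from 197 to 198 Mb with 13 sites, the widest from 197431331 to 197431695 (364 bp), and from 193 to 194 Mb with 12 sites, the widest from 193663256 to 193663580 (324 bp). Outside chromosome 3, the bin of chromosome 10 from 47 to 48 Mb held 9 sites and that of chromosome 16 from 85 to 86 Mb held 8. The chromosome 16 bin was also crowded after hormone, with 82 sites at 60 min. The bin of chromosome 2 from 91 to 92 Mb held 6 sites, against 3 and 1 sites at 5 and 30 min and 0 at 60 and 360 min. Over the whole set, 184 of the 735 had another of its sites within 100 kb.

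Around the sites listed before hormone alone, many MNase reads were found. Micrococcal nuclease (MNase) cuts DNA between nucleosomes, and the authors' deposited table gives a normalized number of MNase reads in unstimulated and in R5020-treated cells at each site of the 60 min list. The sites described here are not in that table, so each was given the value of its nearest 60 min site within 100 kb, which 560 of the 735 had. In the authors' deposited table the median unstimulated density at that neighbour was 45.2 reads per 100 bp (exact 95% interval of the median 43.0 to 47.5), against 31.8 (31.3 to 32.4) for sites listed at 5 min alone, 30.5 for 30 min alone, 30.9 for 60 min alone and 31.2 for 360 min alone. When the 60 min sites were put into 10 equal groups by this density, 205 of the 560 sites (36.6%, 32.6 to 40.7%) had their neighbour in the densest group, where the authors' deposited table gives more than 53.9 reads per 100 bp, against 11.4% for all merged PR sites, 13.1% for 5 min alone and 10.3% (9.30 to 11.3%) for 360 min alone. The share fell steadily towards the sparse end, to 12 of 560 (2.14%) in the sparsest group. Some sites shared a neighbour. The 560 sites had 512 distinct 60 min sites as neighbours, and with each counted once 169 of 512 (33.0%, 28.9 to 37.3%) were in the densest group of the authors' deposited table, against 543 of 4526 (interval 11.1 to 13.0%) for 5 min alone. The 105 merged sites listed at 0 min and later resembled the set in this respect, with 34.0% (24.7 to 44.3%) in the densest group.

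The crowded end of chromosome 3 was dense for every class, and the set stood further from the others on the remaining chromosomes. From 160 Mb on chromosome 3, 108 of the 143 sites with a neighbour (75.5%) were in the densest group of the authors' deposited table, against 63.5%, 67.2%, 64.3% and 67.3% of the sites listed at 5, 30, 60 and 360 min alone. On the rest of chromosome 3 the share was 14.7% (5 of 34), against 10.6% at 5 min alone and 4.17% at 360 min alone. On the other chromosomes the share was 24.0% (92 of 383), against 9.15% for sites listed at 5 min alone and 8.90% for 360 min alone, and 25.9% of the sites listed at 0 min and later. The median density of the 60 min sites in the fullest bin, chromosome 3 from 194 to 195 Mb, in the authors' deposited table was 89.3 reads per 100 bp, and that of the whole 60 min list was 30.3. The densest group was formed after the values had been seen, and the part of read density in which sites were listed at 0 min was not tested. MNase read numbers also follow the number of copies of a stretch of DNA in the cells. Neither copy number nor an input control was analysed here, so a high density in a stretch cannot be told apart from more copies of it, and what copy number contributes to a site being listed was not tested.

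**Figure D2:**
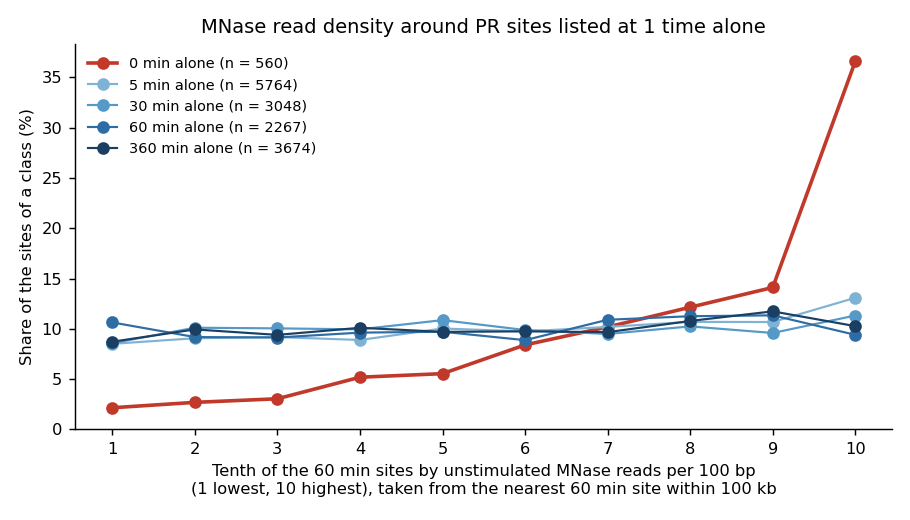
Share (percent) of the PR sites listed at 1 time alone whose nearest 60 min site within 100 kb falls in each of 10 equal groups of the 60 min sites by unstimulated MNase reads per 100 bp, from the authors' deposited table (horizontal axis, 1 sparsest, 10 densest), with 1 line per class. The line for 0 min alone climbs to 36.6% in the densest group, and no point of the 4 hormone times is above 13.1%.

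About as many of the sites listed before hormone alone lay in H3K4me1 regions as of PR sites in general. H3K4me1 regions held 305 of the 735 (41.5%, 37.9 to 45.2%), against 42.1% of all merged PR sites. This was above 5 min alone (36.2%, 35.1 to 37.3%), 30 min alone (32.0%, 30.5 to 33.6%) and 360 min alone (26.5%, 25.2 to 27.8%). The interval overlaps that of 60 min alone (36.7%, 34.9 to 38.6%). The share was below the 60.3% (59.3 to 61.2%) for sites listed at all 4 hormone times and not at 0 min. It was also below the 93.3% (86.7 to 97.3%) for sites listed at 0 min and later. None of the 3 chromatin lists covered 422 of the 735 (57.4%, 53.7 to 61.0%), against 56.7% of all merged PR sites, and 224 sites (30.5%) were in H3K4me1 regions alone.

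Place and read density moved with the H3K4me1 share. From 160 Mb on chromosome 3 the share was 70.6% (62.9 to 77.6%, 113 of 160), against 57.8%, 73.6%, 81.4% and 73.6% of the sites listed at 5, 30, 60 and 360 min alone, so a high share was common to the classes in this stretch. On the rest of chromosome 3 it was 17.4% (7.82 to 31.4%, 8 of 46), against 33.5% (29.0 to 38.2%) at 5 min alone and 14.6% (10.3 to 19.8%) at 360 min alone. On the other chromosomes it was 34.8% (30.7 to 39.0%, 184 of 529), against 34.7% (33.5 to 35.9%) at 5 min alone. In the densest group by MNase reads 66.3% (59.4 to 72.8%) of the sites were in H3K4me1 regions, against 59.0% (55.4 to 62.6%) of those listed at 5 min alone. In the other 9 groups the order turned, with 33.2% (28.4 to 38.4%) against 39.8% (38.5 to 41.2%) for 5 min alone. Outside chromosome 3, then, the difference from the 5 min class was within counting error, and outside the densest group it had the opposite direction. The other single-time classes lay on both sides of the set. Outside chromosome 3 the shares at 30, 60 and 360 min alone were 30.8%, 35.9% and 25.9% (24.6 to 27.3%). Outside the densest group they were 33.0%, 37.8% and 27.0% (25.5 to 28.5%).

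The H3K4me1 regions that held these sites were wide. Their 278 regions had a median width of 5668 bp (4642 to 7408 bp), against 3628 bp (3452 to 3786 bp) for regions with sites listed at 5 min alone, 7211 bp (5272 to 10117 bp) for regions with sites listed at 0 min and later, and 2124 bp over the whole list, and 297 of the 305 sites lay wholly inside their region. The region with most of them was the widest of the list, 432246 bp on chromosome 16 from 85365139 to 85797385, with 7 sites. A region on chromosome 10 from 47052060 to 47064809 held 3. Of the 278 regions, 100 (36.0%, 30.3 to 41.9%) also held a PR site listed after hormone at another place. Among regions of 5668 bp or more, this was the case for 83 of the 139 with a site listed before hormone alone (59.7%, 51.1 to 67.9%) and for 43.5% of all 7932 H3K4me1 regions of that width, although these groups differed in median width, at 14518 bp for the regions with such a site and 8146.5 bp for all. Below that width it was the case for 12.2% (7.29 to 18.9%) and for 14.8%.

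**Figure D3:**
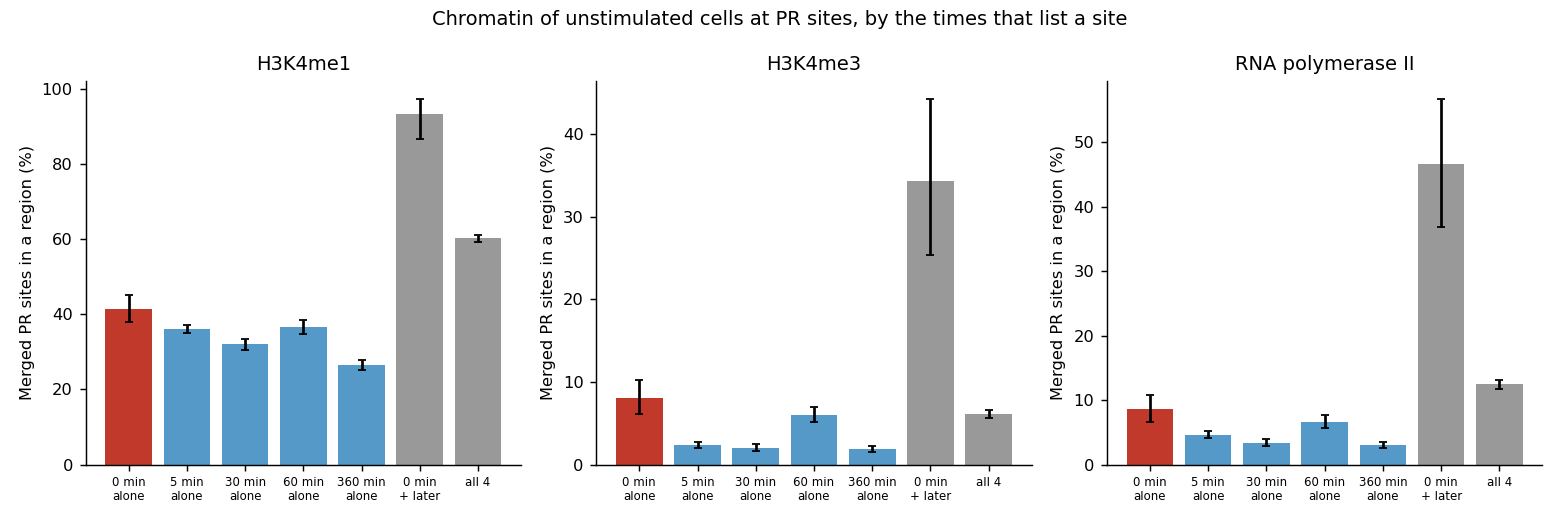
Share (percent) of merged PR sites that overlap an H3K4me1 (left), H3K4me3 (middle) or RNA polymerase II region (right) of unstimulated cells, by the times that list the site ("0 min + later", listed at 0 min and a later time, "all 4", listed at all 4 hormone times and not at 0 min), with exact 95% intervals as error bars. The sites listed before hormone alone (leftmost bar) have 41.5%, 8.03% and 8.57%, and the sites listed at 0 min and later are highest, at 93.3%, 34.3% and 46.7%.

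Sites listed before hormone alone were more often in H3K4me3 and RNA polymerase II regions than sites listed at 5, 30 or 360 min alone. For RNA polymerase II the share was within counting error of that of all merged PR sites. H3K4me3 regions held 59 of the 735 (8.03%, 6.17 to 10.2%), against 4.1% of all merged PR sites, 2.32% (1.99 to 2.69%) of sites listed at 5 min alone, 2.04% at 30 min alone, 5.97% (5.10 to 6.94%) at 60 min alone and 1.85% at 360 min alone. RNA polymerase II regions held 63 (8.57%, 6.65 to 10.8%), against 6.99% of all merged PR sites and 4.64% (4.17 to 5.14%), 3.41%, 6.61% (5.69 to 7.62%) and 3.03% of the sites listed at 5, 30, 60 and 360 min alone. Sites listed at all 4 hormone times and not at 0 min had 6.10% (5.64 to 6.59%) in H3K4me3 regions, an interval that overlaps that of the set. In RNA polymerase II regions they had a higher share than the set, at 12.4% (11.8 to 13.1%). The intervals of the 60 min class overlap those of the sites listed before hormone alone for both. Among the wider 50% of each list of regions the shares were 1.63% (0.846 to 2.83%) and 3.40% (2.21 to 4.98%), against 1.36% and 2.90% at 5 min alone, differences within counting error. All 3 kinds of region coincided at 32 of the 735 (4.35%), against 2.18% of all merged PR sites. These 32 lay on 15 chromosomes, 8 of them on chromosome 3.

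The shares in H3K4me3 and RNA polymerase II regions were also compared by read density. In the densest group of the authors' deposited table, H3K4me3 regions held 17 of 205 sites listed before hormone alone (8.29%, 4.91 to 12.9%), against 4.91% (3.48 to 6.70%) of those listed at 5 min alone. In the other 9 groups of the authors' deposited table they held 16 of 355 (4.51%, 2.60 to 7.22%), against 2.20% (1.81 to 2.64%). In the sparsest 5 groups alone they held 8 of 104 (7.69%, 3.38 to 14.6%), against 61 of 2631 (2.32%, 1.78 to 2.97%) at 5 min alone. The H3K4me3 share of the set therefore did not fall steadily with density, and its intervals in these groups overlap each other. Set against 5 min alone, the intervals overlap in the densest group and in the other 9, and do not overlap in the sparsest 5. For RNA polymerase II the shares were 13.2% (8.86 to 18.6%) in the densest group of the authors' deposited table, against 8.22% (6.36 to 10.4%) at 5 min alone, and 6.20% (3.92 to 9.23%) in the others, against 4.97% (4.38 to 5.61%). The remaining 26 of the 59 sites in H3K4me3 regions were among the 175 sites with no 60 min site within 100 kb, which have no density value.

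Where they overlapped, PR sites listed before hormone alone and H3K4me3 or RNA polymerase II regions tended to cover the same narrow stretch of DNA, a comparison chosen after the regions had been seen. The H3K4me3 regions with a site listed before hormone alone had a median width of 435 bp (375 to 480 bp), narrower than the 634 bp of the whole list, and 11 of 59 (18.6%, 9.69 to 30.9%) were wider than that. Regions with a site of another class were wider, with medians of 791.5 bp (606 to 931 bp) at 5 min alone and 934 bp (804 to 1044 bp) at 360 min alone, and 56.9% and 74.7% of them were wider than 634 bp. The RNA polymerase II regions showed the same difference, with a median of 390 bp (333 to 493 bp), against 604 bp (544 to 688 bp) at 5 min alone and 752.5 bp (612 to 848 bp) at 360 min alone.

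The midpoints also lay closer together. The midpoint of a site listed before hormone alone was a median of 51.5 bp (38.0 to 124 bp) from that of its H3K4me3 region, against 240.5 bp (216 to 311.5 bp) for 5 min alone and 256.75 bp (181 to 308.5 bp) for 360 min alone. For RNA polymerase II the distance was 59.0 bp (42.0 to 98.0 bp), against 190 bp (162 to 212.5 bp) and 254.75 bp (221 to 295.5 bp). Site and H3K4me3 region covered at least 50% of each other at 38 of the 59 (64.4%, 50.9 to 76.4%), against 28 of 171 (16.4%, 11.2 to 22.8%) at 5 min alone and 7 of 82 (8.54%, 3.50 to 16.8%) at 360 min alone. For RNA polymerase II this was so at 39 of 63 (61.9%, 48.8 to 73.9%), against 75 of 342 (21.9%, 17.7 to 26.7%) and 15 of 134 (11.2%, 6.40 to 17.8%). A narrower region allows only a smaller offset, so widths and offsets are not separate observations. The merged sites listed at 0 min and later also matched their H3K4me3 regions closely, at 21 of 36 (58.3%, 40.8 to 74.5%), with a median region width of 710 bp (572 to 1005 bp). For RNA polymerase II they did so at 25 of 49 (51.0%, 36.3 to 65.6%), an interval that overlaps that of the set. Sites listed at all 4 hormone times and not at 0 min had 24.1% (20.8 to 27.7%) for H3K4me3 and 36.0% (33.3 to 38.8%) for RNA polymerase II.

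**Figure D4:**
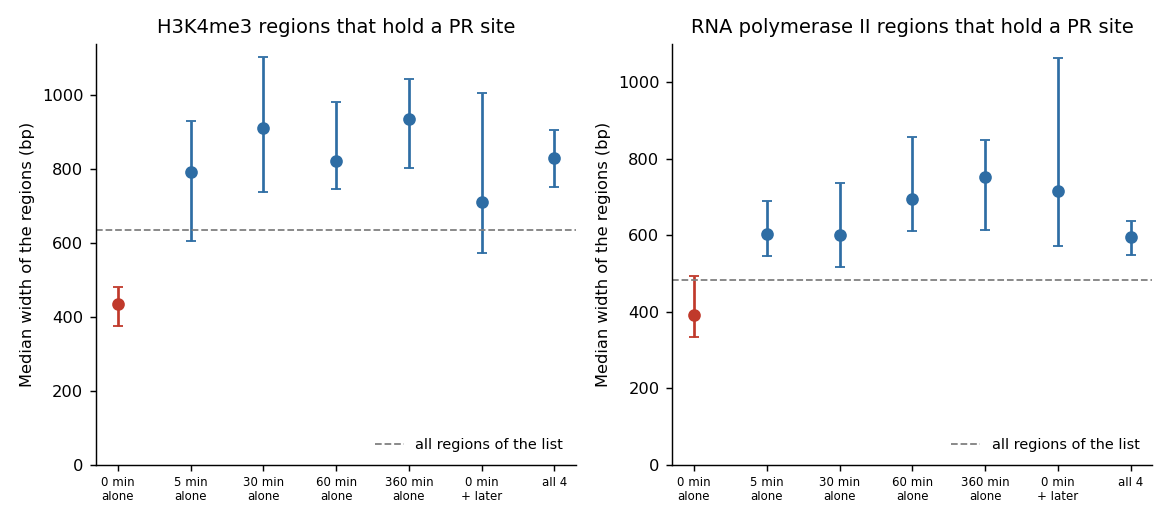
Median width in bp, with its exact 95% interval, of the H3K4me3 (left) and RNA polymerase II regions (right) that hold a PR site, by the times that list the site ("all 4", listed at all 4 hormone times and not at 0 min), and the median of all regions of the list as a broken line. The regions with a site listed before hormone alone, the leftmost point in each panel, have medians of 435 and 390 bp, below all other classes.

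The widest sites in all 3 kinds of region show how the chromatin and later PR sites lay around them. After the pair on chromosome 20, whose nearest hormone-time site was listed at 5 min 14.2 and 13.2 kb away, they were the sites starting at 91852691 on chromosome 1, at 58118182 on chromosome 8 and at 202593833 on chromosome 1. Their nearest hormone-time sites were 30.0, 14.3 and 17.0 kb away, at 5, 60 and 360 min. The 5 widest sites in none of the 3 lists spanned 171599166 to 171599620 (454 bp) and 171221504 to 171221938 (434 bp) on chromosome 3, 134043005 to 134043426 (421 bp) on chromosome 11, 693991 to 694405 (414 bp) on chromosome 7 and 46868226 to 46868631 (405 bp) on chromosome 21. Hormone-time sites lay 1.80, 11.7, 17.5, 2.77 and 5.45 kb from these, listed at 60, 60, 360, 60 and 360 min. The site on chromosome 12 from 127650394 to 127650733, 44 bp from a 60 min site, overlapped all 3 kinds of region. That 60 min neighbour had 1154 unstimulated and 290 R5020 MNase reads in the authors' deposited table, or 491 unstimulated reads per 100 bp.

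Some of these sites lay within 5 Mb of the large unlisted stretch of their chromosome. The widest run of each chromosome that no site or region of the 8 lists covers was taken as a landmark after the positions had been seen. It was 3.20 Mb wide on chromosome 10 and 18.3 Mb on chromosome 9. Within 5 Mb of it lay 58 of the 735 (7.89%, 6.05 to 10.1%), against 5.15% of all merged PR sites and 4.99% (4.51 to 5.51%) of the sites listed at 5 min alone. The wide pair on chromosome 20, the site on chromosome 7, and the crowded bins of chromosomes 10 and 2 described above belong to these 58. The stretch of chromosome 10 ended at 42354788, so the 9 sites in the bin from 47 to 48 Mb lay only just inside the limit of 5 Mb. Other limits were not tried, and crowded sites count singly in the interval. H3K4me3 regions held 16 of the 58 (27.6%, 16.7 to 40.9%), against 3.26% (1.70 to 5.63%), 6.02% (2.93 to 10.8%), 9.92% (5.39 to 16.4%) and 2.02% (0.660 to 4.66%) of the sites listed at 5, 30, 60 and 360 min alone there. The merged sites listed at 0 min and later had the highest share, at 10 of 11 (90.9%, 58.7 to 99.8%). Several of these 11 lay together on chromosome 9, between 68413233 and 68425968. They are not separate places, so the interval is too narrow. Farther than 5 Mb from the stretches H3K4me3 regions held 6.35% (4.63 to 8.46%) of the sites listed before hormone alone, against 2.27% at 5 min alone. The 11 sites within 5 Mb of the stretch of chromosome 10 and the 7 near that of chromosome 2 were all in H3K4me1 regions. Of the 58, 12 were in H3K4me1 and H3K4me3 regions without RNA polymerase II.

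Few of the sites listed before hormone alone had a hormone-time site close by. Their nearest hormone-time site was a median of 13.4 kb away (12.1 to 14.8 kb, quartiles 4.57 and 35.3 kb). It was a 5 min site for 254, a 30 min site for 163, a 60 min site for 166 and a 360 min site for 152. Within 500 bp of a hormone-time site lay 31 of the 735, within 1 kb 52, within 10 kb 301 and beyond 100 kb 56. The most remote was the site on chromosome 9 from 44070634 to 44070856, in all 3 kinds of region and 2.13 Mb from the nearest hormone-time site.

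A site listed at 1 time alone overlaps no site of another list, so the rule itself limits near neighbours. The classes were not chosen quite alike. A site listed before hormone alone had to miss all 4 hormone-time lists, of 22973 to 25872 sites each. A site of another class had to miss the other hormone-time lists and the 844 sites of the 0 min list. The shares of near neighbours are therefore a description, and their intervals test no difference between classes. Compared list by list, 26 of the 735 (3.54%, 2.32 to 5.14%) had a 60 min site within 1 kb, against 9.73% (9.06 to 10.4%) of sites listed at 5 min alone, 11.4% (10.4 to 12.5%) at 30 min alone and 8.08% (7.29 to 8.92%) at 360 min alone. A 360 min site lay within 1 kb of 24 (3.27%, 2.10 to 4.82%), against 7.77% (7.17 to 8.41%) at 5 min alone and 8.90% (7.85 to 10.0%) at 60 min alone. A 5 min site lay within 1 kb of 30 (4.08%, 2.77 to 5.78%), an interval that overlaps that of the sites listed at 360 min alone (5.59%, 4.93 to 6.31%). Within 10 kb the share for the 60 min list was 25.3% (22.2 to 28.6%), against 31.6% (30.6 to 32.7%) at 5 min alone and 33.1% (31.8 to 34.5%) at 360 min alone. A 5 min site lay within 10 kb of 27.5% (24.3 to 30.9%). This share was 35.6% (34.1 to 37.2%) at 30 min alone, 33.8% (32.0 to 35.6%) at 60 min alone and 26.0% (24.7 to 27.3%) at 360 min alone. The last of these intervals overlaps that of the set. For a 360 min site within 10 kb the share was 25.4% (22.3 to 28.8%), an interval that overlaps that of 5 min alone (28.6%, 27.6 to 29.6%). The same share was 31.7% (30.2 to 33.2%) at 30 min alone and 36.35% (34.5 to 38.2%) at 60 min alone.

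**Figure D5:**
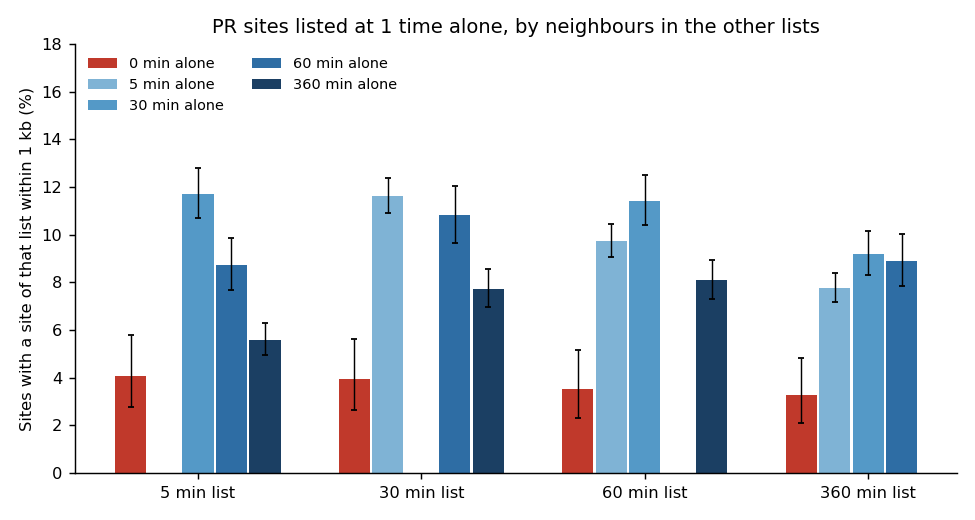
Share (percent, with exact 95% intervals) of PR sites listed at 1 time alone that have a site of the 5, 30, 60 or 360 min list within 1 kb, with a bar for each class and no bar for a class against its own list. The sites listed before hormone alone lie between 3.27% and 4.08%, and the other classes between 5.59% and 11.7%.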

How the data were processed

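Per the file headers, the authors deposited 1 list of PR sites per time and a table of PR sites at 60 min. That table holds a normalized number of MNase reads per site, handled here as a score since its whole numbers are normalized and not raw, and the authors' ratio of the unstimulated to the R5020 value. Per the labels, H3K4me1, H3K4me3 and RNA polymerase II regions of unstimulated cells were deposited as positions. The build was hg19, per the submitters' processing notes. For the aligner, peak caller, thresholds, input control and depth, no statement was at hand (not given in the sources used here).

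Sites were merged at an overlap of 1 bp. Sites touching without overlap occurred 5 times, and none involved a site listed before hormone alone. MNase reads per 100 bp were taken from the nearest 60 min site outside the merged site, within 100 kb. Named sites were the 10 widest, the 5 widest in all and in none of the 3 chromatin lists, the 5 nearest to either side of the rule, and the widest in the 3 fullest 1 Mb bins. Other sites are named as examples chosen after their values were seen. The members and comparisons were chosen with earlier results of these data known. The gene and promoter tables at hand use another build, so genes and sequences were not used here. Merging, classing and overlap were tested on simulated data with known answers. Python 3.11.15, NumPy 2.4.6, pandas 2.3.3, SciPy 1.17.1 and Matplotlib 3.10.9 were used.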

Additional observations from a re-analysis of the deposited data

How the results depend on the processing

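No paired analysis was possible because each group holds 1 sample. With 735 sites as reported, the other rules for a shared site gave 531 to 776 sites, and the wider 50% of each list gave 368 (median width 270.5 bp). Merging sites within 5 kb put 24.5% on chromosome 3. Of 66 alternatives, 40 stayed within the interval of the reported value (for counts, within 1.5 times) and 26 did not. Those that left it for the H3K4me1, H3K4me3 and RNA polymerase II shares, in that order, were regions within 1 kb (48.6%, 11.8%, 13.5%), the wider 50% of regions (34.6%, 1.63%, 3.40%), the wider 50% of the sites (50.8%, 12.1%, 12.9%) and sites below the densest MNase group (33.2%, 4.51%, 6.20%). The H3K4me1 share was 34.8% without chromosome 3 and 33.1% with 1 site per 1 Mb, and the H3K4me3 share was 10.3% with a reciprocal overlap of 50%. Over 11 settings, the reported one included, the interval lay above the value of 5 min alone in 10 for H3K4me3, 8 for RNA polymerase II and 7 for H3K4me1. It held that value for H3K4me3 and RNA polymerase II with the wider 50% of regions (1.36% and 2.90% at 5 min alone), and for RNA polymerase II also with 1 site per 1 Mb (7.01%, against 5.44%) and below the densest group (against 4.97%). For H3K4me1 it held the value without chromosome 3, with 1 site per 1 Mb and without sites near the unlisted stretches, and lay below it outside the densest group. The distance to the nearest hormone-time site was 28.5 kb for the 60 min list alone and 15.9 kb without chromosome 3. The 3 fullest bins held 5.85% of the sites at 1 Mb, 12.5% at 5 Mb and 2.04% at 100 kb. From the authors' deposited table, MNase density near the sites was 1.49 times that of all 60 min sites, 1.58 times within 10 kb and 1.37 times without chromosome 3. The share in the densest group was 24.0% without chromosome 3 and 41.4% within 10 kb, and 33.0% with each 60 min site counted once. The alternatives on the edge of the unlisted stretches and on MNase groups were added after seeing the data. Where chromosome 3 was to be left out and the chromosome with most sites too, these were the same. Alternatives on sequence and on gene starts were not run. The unknown depth of the lists limits every statement on absence.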

Other observations

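Wider sites of the set lay more often in marked chromatin. When the 735 sites were put into 4 groups of nearly equal size by width, in the narrowest (135 to 202 bp) H3K4me1 regions held 29.3% (22.9 to 36.5%), H3K4me3 regions 1.63% (0.338 to 4.69%) and RNA polymerase II regions 3.26% (1.21 to 6.96%). In the widest (264 to 953 bp) these shares were 56.0% (48.5 to 63.3%), 17.4% (12.2 to 23.7%) and 17.4% (12.2 to 23.7%). Among the wider 50% of the set they were 50.8%, 12.1% and 12.9%. Among the wider 50% of sites listed at 5 min alone they were 41.5%, 2.57% and 5.94%, against 36.2%, 2.32% and 4.64% of that whole class. A wider site meets a region more easily at an overlap of 1 bp, and what width alone contributes was not tested. Chromosome 3 held 33.7% of the widest group and 23.4% of the narrowest.

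MNase reads around these sites were also high after R5020. At the nearest 60 min site within 100 kb, the median after R5020 in the authors' deposited table was 36.1 reads per 100 bp (34.6 to 38.0), against 26.0 (25.6 to 26.4) around sites listed at 5 min alone and 23.0 (22.5 to 23.6) around sites listed at 360 min alone. The median ratio of unstimulated to R5020 reads there was 1.25 in the authors' deposited table, against 1.22 for 5 min alone and 1.32 for 360 min alone.

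The 175 sites with no 60 min site within 100 kb had H3K4me1 regions in 29.1% of cases, against 45.4% of the 560 sites with one. They included 26 of the 59 sites in H3K4me3 regions, and 22 of the 58 near the edge of an unlisted stretch.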
